A study of Mus musculus with 9 samples.

Results

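Skin that had been irradiated with ultraviolet B was compared with skin that had not, whatever treatment the irradiated skin received. The irradiated set was every library of the groups UVB_Saline and UVB_hCOL3A1, 6 of the 9 libraries, and the 3 NoUVB libraries were the reference. All libraries came from skin of BALB/c nude mice, an albino, athymic strain that lacks functional Foxn1 and grows only sparse hair. NoUVB skin was not irradiated, and the labels name no treatment for it. UVB_Saline and UVB_hCOL3A1 skin was exposed on the back every second day during 8 weeks, at 60 mJ/cm2 (1 minimal erythemal dose) for the first 2 weeks, 120 mJ/cm2 in the third week, 180 mJ/cm2 in the fourth and 240 mJ/cm2 (4 minimal erythemal doses) from the fifth week on. The first of these groups is labelled with saline and the other with hCOL3A1, a treatment that the series title describes as mRNA for type III collagen. The sources used here do not give the dose, carrier or route of the treatments, the age and sex of the mice, or the time of day of collection. Tissue was taken at a day 28 whose starting point is not stated. Since NoUVB carries no saline label, irradiation and saline or other treatment cannot be told apart. The labels do not tie libraries to animals, so the spread behind each p-value is that between samples and may be technical in part.

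Ultraviolet B is absorbed mainly in the epidermis, where it forms pyrimidine dimers in DNA that nucleotide excision repair removes and that activate p53. Repeated exposure is known for thickening of the epidermis, recruitment of immune cells, breakdown of dermal collagen and deposition of disordered elastic fibres. Type I interferon, made after nucleic acid is sensed in the cytosol, acts through a cell surface receptor and its kinases and induces a shared set of antiviral genes. Skin also holds a circadian clock, in which BMAL1 and CLOCK drive Per and Cry genes through E-box sites, and several clock genes respond to glucocorticoids as well.

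Total estimated counts were 7640172 to 12927411 per library, of which the 18S ribosomal gene Rn18s-rs5 made up 34.3% to 55.3% except in NoUVB 2, where it made up 7.71% (Wilson 95% interval from 7.69% to 7.73%, counting error only). UVB_Saline 3 and UVB_hCOL3A1 3 stood apart on the first principal component, which held 31.6% of the variance, at 55 and 39.8 against -33.5 to 10 for the other 7. For several lists and genes that rest on those libraries, values are also given without them. The keratinocyte marker Krt5 lay between 895 and 1530.4 CPM (counts scaled to sequencing depth, here by TMM) in all 9, and all 10 keratinocyte markers were measured.

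Across 17168 genes tested, 2 fell in irradiated skin (0.0116% of genes) and 0 rose (0%) in edgeR's quasi-likelihood test at an adjusted p of 0.05. Both that fell, Adcyap1r1 and Zbtb16, were lower in each of the 6 irradiated libraries than in any NoUVB library. With no adjustment, 893 genes had p under 0.05 on the higher side and 890 on the lower. With DESeq2 the calls were 95 higher (0.561%) and 71 lower (0.42%) among 16920 genes with an adjusted p, and with limma voom they were 0 (0%) and 6 (0.0349%). Scaling by library size alone, which counts Rn18s-rs5 (55.3% of NoUVB 1 and 7.71% of NoUVB 2), gave 76 higher and 62 lower. With it 55.1% of calls were higher against 0% with TMM, and the median of all genes was -0.08 instead of 0.00. These counts changed when single libraries were left out, which also leaves fewer libraries to the test. With NoUVB 1, NoUVB 2, NoUVB 3, UVB_hCOL3A1 1 or UVB_hCOL3A1 2 left out, 0 genes were called, and 1 was called without UVB_Saline 2. Leaving out UVB_Saline 1 gave 50 higher and 19 lower, and leaving out UVB_Saline 3 gave 11 higher and 12 lower. A looser description counted the genes whose 6 irradiated values all lay on one side of the 3 NoUVB values. They numbered 352 above (2.05% of all genes tested) and 417 below (2.43%), and 50.6% of all genes had a positive log2 difference. Those shares are the background for the gene groups that follow. Every named gene other than Adcyap1r1 and Zbtb16 missed the threshold in edgeR's test of all irradiated skin, and its value is given as a description. In whole skin, fewer cells of a type and less RNA per cell cannot be told apart.

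**Figure D1:**
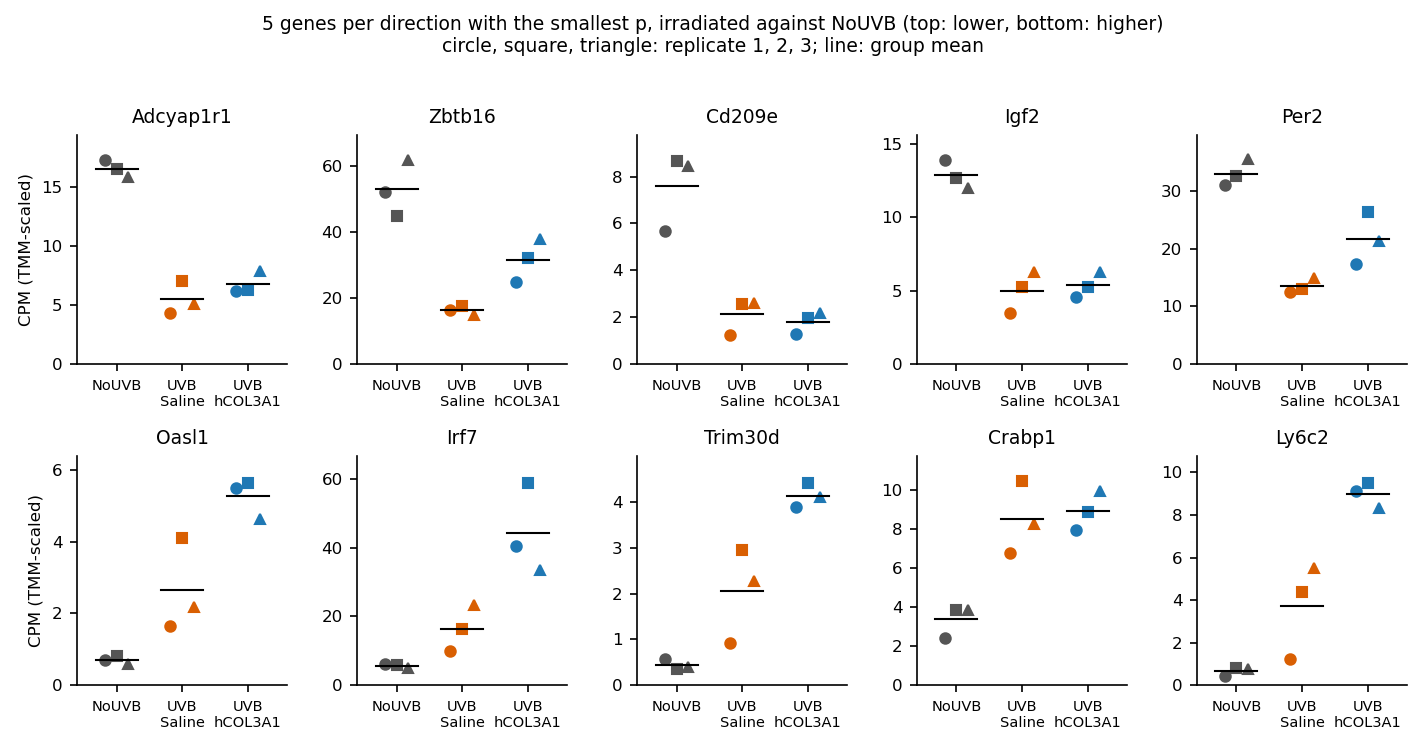
CPM (TMM-scaled) of 10 genes in each library, with a line at each group's mean; the top row holds the 5 lower and the bottom row the 5 higher genes with the smallest p among genes above a level of 1 on the log2 CPM scale whose groups did not overlap. In the top row all irradiated points lie below all NoUVB points, as the choice of genes required, and Adcyap1r1 and Zbtb16 are the 2 that passed the test.

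Adcyap1r1 (ENSMUSG00000029778), the main receptor for the neuropeptide PACAP, which sensory and autonomic nerve endings release in skin, fell in irradiated skin. Its level was 17.3, 16.6 and 15.9 CPM in the 3 NoUVB libraries. UVB_Saline libraries held 4.31, 7.07 and 5.09 CPM and UVB_hCOL3A1 libraries 6.18, 6.3 and 7.88 CPM. The highest irradiated value was thus less than the lowest NoUVB value, and the irradiated groups overlapped each other. The log2 difference was -1.44 ± 0.16 (SE; means 6.14 ± 1.29 (SD, n = 6) against 16.6 ± 0.729 CPM (SD, n = 3); adjusted p = 0.0264). It ranged from -1.55 to -1.36 when single libraries were left out, and the adjusted p reached 0.174 without NoUVB 1. In the neuropeptide receptor list 9 genes were tested, and 7 had a negative difference. Of the 9, 2 lay below NoUVB in all 6 libraries (22.2% against 2.43% of all genes). The call was 1 gene, where 0.0116% of all genes were called lower. The list median was -0.19, or -0.08 without UVB_Saline 2. The second below NoUVB was Vipr1, a receptor for the related peptide VIP, at 6.25, 5.89 and 5.29 CPM in NoUVB and from 2.82 to 3.96 with a median of 3.33 in irradiated skin (-0.77 ± 0.16, adjusted p = 0.176). Npy1r, a receptor of neuropeptide Y, had a difference of -0.51 ± 0.27 and Calcrl, a subunit of receptors for CGRP and adrenomedullin, one of -0.25 ± 0.14, both with overlapping groups. The remaining 7 of 16 listed genes had too few counts to be tested. They included the ligand genes Gal, Adcyap1 (PACAP) and Vip besides receptors. The highest count in any library was 0 for Adcyap1 and 0 for Vip.

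Zbtb16 (ENSMUSG00000066687), a zinc finger transcriptional repressor that is also a strongly glucocorticoid-induced gene, was the other gene that fell. NoUVB libraries held 52.1, 44.8 and 61.7 CPM. UVB_Saline libraries held 16.4, 17.6 and 14.9 CPM and UVB_hCOL3A1 libraries 24.9, 31.988 and 37.8 CPM. All 6 irradiated values lay below NoUVB, and the 3 UVB_hCOL3A1 values all lay between the other groups. The log2 difference was -1.22 ± 0.14 (SE; means 23.9 ± 9.35 (SD, n = 6) against 52.9 ± 8.44 CPM (SD, n = 3); adjusted p = 0.0264). The irradiated groups differed from each other by 0.95 ± 0.17 on the log2 scale (UVB_hCOL3A1 minus UVB_Saline), which missed the threshold (adjusted p = 0.166). With the 6 irradiated libraries fitted as 1 group, which puts that gap into the spread, the adjusted p of Zbtb16 was 0.295.

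Genes induced by glucocorticoids lay mostly below NoUVB in irradiated skin. Of 20 tested, 15 had a negative difference, 8 (40% against 2.43% of all genes) lay below NoUVB in all 6 libraries and 1, Zbtb16, was called, with a list median of -0.43 against 0.00 for all genes. DESeq2 called 7 of the 20 lower and 1 higher, and limma voom called Zbtb16 and Per1 lower. Tsc22d3, which encodes the glucocorticoid-induced leucine zipper GILZ, was at 93.031, 70.1 and 142 CPM in NoUVB. In irradiated skin it ranged from 34.9 to 56.3 with a median of 36.1 (-1.29 ± 0.21, adjusted p = 0.123). Without NoUVB 3 the difference of Tsc22d3 was -0.97. Cebpd, a C/EBP family transcription factor, held 19.5, 18.6 and 19.8 CPM in NoUVB and ranged from 6.79 to 11.3 with a median of 10.6 (-1.0 ± 0.17, adjusted p = 0.103). For Cebpd the irradiated levels were about the same in both groups, with a difference between them of -0.01 ± 0.20. Klf9 (-0.50), a Krüppel-like factor, Errfi1 (-0.87), a feedback inhibitor of the EGF receptor, Sgk1 (-0.47), a serum and glucocorticoid regulated kinase, and Dusp1 (-0.90, or -0.50 without NoUVB 3), a MAP kinase phosphatase, also lay below NoUVB in every irradiated library. Means over the list, in log2 units from the NoUVB mean, were -0.47, -0.36 and -0.65 in UVB_Saline and -0.47, -0.24 and -0.28 in UVB_hCOL3A1, against -0.04, -0.12 and 0.17 in NoUVB, without overlap. Fkbp5, a chaperone in this list, had a difference of -0.30 ± 0.16. Lcn2, an antimicrobial lipocalin also in this list, lay on the other side, at 1.27 ± 0.26 (adjusted p = 0.154).

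Period genes of the circadian clock lay below NoUVB as well. The time of day of collection is not given for any group, and its part in the values of clock and clock output genes was not tested. Among 20 clock genes 14 had a negative difference and 6 (30% against 2.43%) lay below NoUVB in all 6 libraries, with a median of -0.21. In edgeR's test 0 were called, with 7 lower and 1 higher at an unadjusted p under 0.05. DESeq2 called Per1, Per2 and Per3 lower, and limma voom called Per1 and Per2. Across the 21 alternatives Per1 was called in 10, Per2 in 9 and Per3 in 2. Per1 was at 104, 96.7 and 113 CPM in NoUVB and ranged from 39.036 to 64.973 with a median of 49.1 in irradiated skin (-1.03 ± 0.14, adjusted p = 0.0609). Per1 is also a glucocorticoid target and is counted in both lists. Per2 held 30.963, 32.5 and 35.5 CPM in NoUVB, 12.5, 12.9 and 14.960 in UVB_Saline and 17.4, 26.2 and 21.3 in UVB_hCOL3A1, again with no overlap between irradiated and NoUVB skin. Its difference was -0.95 ± 0.13 (adjusted p = 0.0556), and in UVB_Saline alone against NoUVB, where it passed, -1.29 ± 0.16 (adjusted p = 0.0328). Per3 was at 49.99, 44.8 and 47.4 CPM in NoUVB and ranged from 28.2 to 36.8 with a median of 32.4 (-0.54 ± 0.10, adjusted p = 0.136). The repressors Cry1 (-0.56 ± 0.16) and Cry2 (-0.38 ± 0.12) lay below NoUVB throughout as well. Bmal1, the activator whose RNA cycles opposite to the Per genes, did not show that separation, at 12.5, 11.6 and 11.1 CPM in NoUVB and from 10.8 to 16.1 with a median of 12.6 in irradiated skin (0.15 ± 0.14, adjusted p = 0.751). Nr1d1, the nuclear receptor REV-ERBα that represses Bmal1, had 0.05 ± 0.18.

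Among 11 genes of clock output, 9 had a negative difference and 4 (36.4%) lay below NoUVB in all 6 libraries, with a median of -0.35. Tef, a PAR bZIP transcription factor that binds D-box sites, had 82.2, 83.8 and 87.1 CPM in NoUVB and ranged from 59.8 to 68.6 with a median of 62.003 in irradiated skin (-0.43 ± 0.07, adjusted p = 0.103). Its relative Hlf had -0.68 ± 0.20. Dbp, the third member of that family, had 1 irradiated library above the lowest of the NoUVB values of 50.4, 46.9 and 39.1 CPM and ranged from 32.8 to 39.7 with a median of 36.2 (-0.35 ± 0.09). Per1 and Tsc22d3 are the other 2 and are described above. Both lists kept a negative median when single libraries were left out, at -0.26 without NoUVB 3 and -0.20 without UVB_hCOL3A1 3 for the clock and -0.40 without NoUVB 3 and -0.27 without NoUVB 1 for its output.

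**Figure D2:**
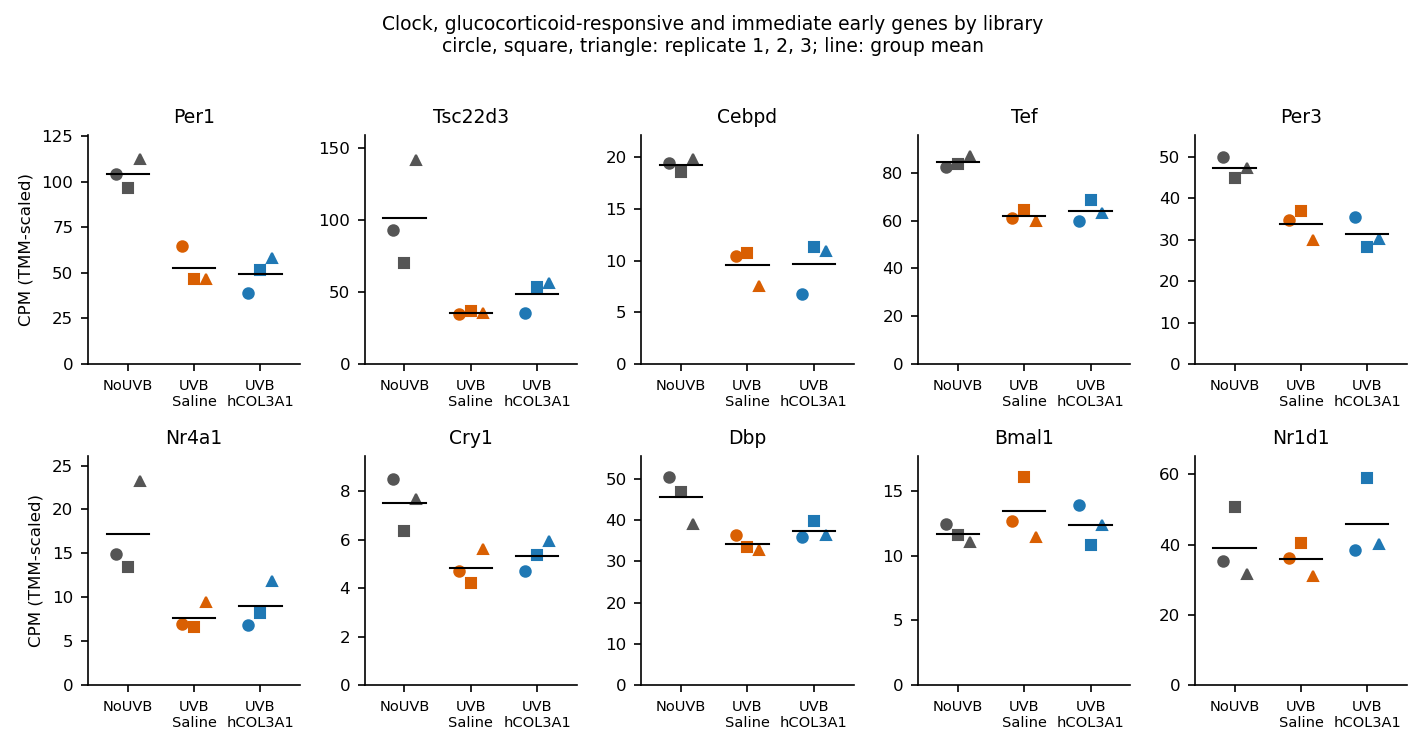
CPM (TMM-scaled) of 10 clock, glucocorticoid-responsive and immediate early genes in each library, with a line at each group's mean. Per1, Tsc22d3, Cebpd, Tef, Per3, Nr4a1 and Cry1 show all 6 irradiated libraries below all 3 NoUVB libraries, while Dbp, Bmal1 and Nr1d1 overlap.

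Promoters of these genes are shown because the E-box and D-box are the sites through which the clock acts. Windows of 250 bases before to 50 after each start were taken from RefSeq on GRCm38.p6, a different build from the GRCm39 of the count table. They were available for 24 of the 33 genes of both clock lists, with 35 promoters. The E-box CACGTG, which reads the same on both strands, was in 7 of those 35 (20%) and in 7.15% of all 32851 promoters. The D-box (TTATGTAA, TTACGTAA, TTATATAA or TTACATAA, on either strand) was in 2 of 35 (5.71%) and in 1.59% of all. A match is a description of the letters only. The following 100-base stretches run 5′ to 3′ along the gene, with the E-box or D-box in capitals. Per1 is at chr11:69098736-69098835 on the plus strand, with its E-box at bases -166 to -161 from the start, Tef at chr15:81802499-81802598 on the plus strand with its E-box at -127 to -122, and Per3 at chr4:151044794-151044893 on the minus strand, with 2 D-boxes between -205 and -151.
Per1: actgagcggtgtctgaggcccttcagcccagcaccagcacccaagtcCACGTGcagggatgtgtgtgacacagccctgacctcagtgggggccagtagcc
Tef: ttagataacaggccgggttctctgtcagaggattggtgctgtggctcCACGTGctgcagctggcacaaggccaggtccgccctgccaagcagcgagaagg
Per3: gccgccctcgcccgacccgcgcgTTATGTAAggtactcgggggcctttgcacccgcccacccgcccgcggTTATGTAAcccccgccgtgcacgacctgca
The matched letters sit in genes whose 6 irradiated values all lay below NoUVB, and they are also in promoters of genes that showed no such separation, such as the E-box of Ciart, a clock repressor with a difference of -0.47 ± 0.26. No promoter of Per2 or Zbtb16 was in the table.

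Immediate early genes, which stimuli and tissue handling induce within minutes, also lay mostly below NoUVB. Of 24 tested, 22 had a negative difference, 7 (29.2%) lay below NoUVB in all 6 libraries and 0 were called by edgeR (11 lower at an unadjusted p under 0.05), with a median of -0.32 that was -0.41 without NoUVB 1 and -0.20 without NoUVB 3. DESeq2 called 4 lower (Dusp1, Egr1, Ier2 and Nr4a1) and limma voom 0. Nr4a1, an orphan nuclear receptor, was at 14.9, 13.4 and 23.3 CPM in NoUVB and ranged from 6.66 to 11.9 with a median of 7.58 in irradiated skin (-1.06 ± 0.22, adjusted p = 0.176). Egr1, a zinc finger transcription factor, was at 169, 156 and 199 CPM in NoUVB and ranged from 72.7 to 131 with a median of 103 (-0.77 ± 0.18). Ier2 (-0.55 ± 0.12), Fosb (-1.64 ± 0.54), Jun (-0.30 ± 0.10), Klf4 (-0.29 ± 0.08) and Dusp1 were the others with no overlap. The list means were -0.24, -0.11 and 0.36 in NoUVB, -0.36, -0.50 and -0.37 in UVB_Saline and -0.37, -0.50 and -0.27 in UVB_hCOL3A1, so NoUVB 3 was highest. As for the clock and glucocorticoid lists, all 6 irradiated list means lay below NoUVB, with Per1 and Dusp1 in more than 1 list. The order of libraries within a group was not the same as for the clock list, whose means were 0.05, -0.03 and -0.01 in NoUVB, -0.31, -0.14 and -0.28 in UVB_Saline and -0.34, -0.17 and -0.16 in UVB_hCOL3A1. In the glucocorticoid list NoUVB 3 was again the highest NoUVB library (-0.04, -0.12 and 0.17). Without NoUVB 3 the glucocorticoid median was -0.34. The order within the irradiated groups differed between the glucocorticoid and immediate early lists. The part of immediate early induction in the clock and glucocorticoid values was not tested.

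Interferon-stimulated genes were higher in irradiated skin in direction, with wide spread between libraries. All 58 tested had a positive difference, against 50.6% of all genes, and 13 (22.4% against 2.05%) lay above NoUVB in all 6 libraries. None was called by edgeR's test, which called 0 higher genes in all, and 36 had an unadjusted p under 0.05. DESeq2 called 19 of the 58 higher, among them Irf7, Oasl1, Mx1 and Isg15, and limma voom called 0. With edgeR 19 were called with scaling by library size alone, which takes in the uneven share of Rn18s-rs5. Other edgeR settings called 12 without UVB_Saline 1, 4 without UVB_Saline 3, 3 with no filter on low counts and 2 with a replicate block. The median was 1.03 against 0.00 for all genes, 1.13 in UVB_Saline and 0.92 in UVB_hCOL3A1 against the same NoUVB libraries. By library the list mean was 0.22, -0.17 and -0.05 in NoUVB, 0.10, 0.71 and 2.10 in UVB_Saline and 1.06, 1.13 and 1.32 in UVB_hCOL3A1. UVB_Saline 1 thus lay among the NoUVB libraries, UVB_Saline 3 lay highest, and the 3 UVB_hCOL3A1 libraries lay close together above NoUVB. The median was 0.59 without UVB_Saline 3 and 0.57 without both UVB_Saline 3 and UVB_hCOL3A1 3, the 2 libraries that stand apart.

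Irf7, the transcription factor that amplifies type I interferon production, was at 6.11, 5.89 and 4.81 CPM in NoUVB, 9.85, 16.2 and 23.3 in UVB_Saline and 40.6, 58.9 and 33.6 in UVB_hCOL3A1. The 3 groups followed each other without overlap (2.27 ± 0.31 for irradiated skin, adjusted p = 0.0749), and in UVB_hCOL3A1 alone against NoUVB it rose by 2.99 ± 0.33 on the log2 scale (adjusted p = 0.0482). Oasl1, a member of the oligoadenylate synthetase family that restrains Irf7 translation, was at 0.71, 0.804 and 0.577 CPM in NoUVB, 1.64, 4.11 and 2.17 in UVB_Saline and 5.49, 5.64 and 4.64 in UVB_hCOL3A1 (2.41 ± 0.35, adjusted p = 0.0749). Trim30d, of a cluster of closely related Trim30 genes among which reads may be shared, rested on 4, 4 and 4 counts in NoUVB and on 9, 36 and 21 and 51, 47 and 38 in the irradiated groups (2.76 ± 0.42, adjusted p = 0.0754). All 6 irradiated libraries were above NoUVB for each of these genes, with UVB_Saline 1 the lowest. Mx1, a dynamin-like antiviral GTPase, had 1.14, 1.61 and 1.92 CPM in NoUVB, 2.77, 8.39 and 18.4 in UVB_Saline and 6.63, 7.81 and 6.26 in UVB_hCOL3A1 (2.36 ± 0.57). Isg15, a ubiquitin-like modifier, had 0.994, 1.07 and 1.54, 1.95, 2.8 and 12.8 and 4.57, 3.39 and 4.75 CPM in the same order (2.01 ± 0.65, or 1.38 without UVB_Saline 3). Cmpk2, a mitochondrial nucleotide kinase, had equal differences in both irradiated groups (1.45 ± 0.30 and 1.45 ± 0.30). Oas1g (2.78 ± 0.58), which shares sequence with other Oas1 genes, Rsad2 (1.67 ± 0.37), which encodes viperin, Ifit1 (2.40 ± 0.55), Bst2 (2.13 ± 0.52), which encodes tetherin, Oas3 (2.47 ± 0.74), Ifi44 (3.06 ± 1.0), Phf11d (1.17 ± 0.35) and Eif2ak2 (0.83 ± 0.28), the double-stranded RNA kinase PKR, made up the rest of the 13.

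The promoters of interferon genes are shown because factors of the interferon pathway bind 1 short element. That element, GAAA followed by any 2 bases and GAAA, was searched on both strands and counted once per promoter where copies overlap. It was in 30 of 55 promoters (54.5%) of the 46 interferon-list genes in the RefSeq table (61 listed), and in 3.44% of all 32851 promoters. Among the 10 genes plotted first, 5 per direction, 8 had promoters there, and those of Trim30d and Igf2 held it, 2 of 12 (16.7%). Isg15 at chr4:156200836-156200935 (minus strand) held 3 overlapping copies between bases -78 and -57, and Trim30d at chr7:104507836-104507935 (minus strand) held 1 on the opposite strand at -41 to -32. Capitals mark the element in these 100-base stretches, 5′ to 3′ along the gene.
Isg15: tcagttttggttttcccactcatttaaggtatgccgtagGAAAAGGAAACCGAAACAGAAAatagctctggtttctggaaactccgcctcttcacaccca
Trim30d: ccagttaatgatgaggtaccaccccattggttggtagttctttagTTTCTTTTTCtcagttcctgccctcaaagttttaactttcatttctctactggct
Isg15 had its highest level in UVB_Saline 3, while Trim30d was higher in every UVB_hCOL3A1 library than in any UVB_Saline library. No match was found for Irf7 or Oasl1 in this window, and no promoter of Mx1 was in the table.

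**Figure D3:**
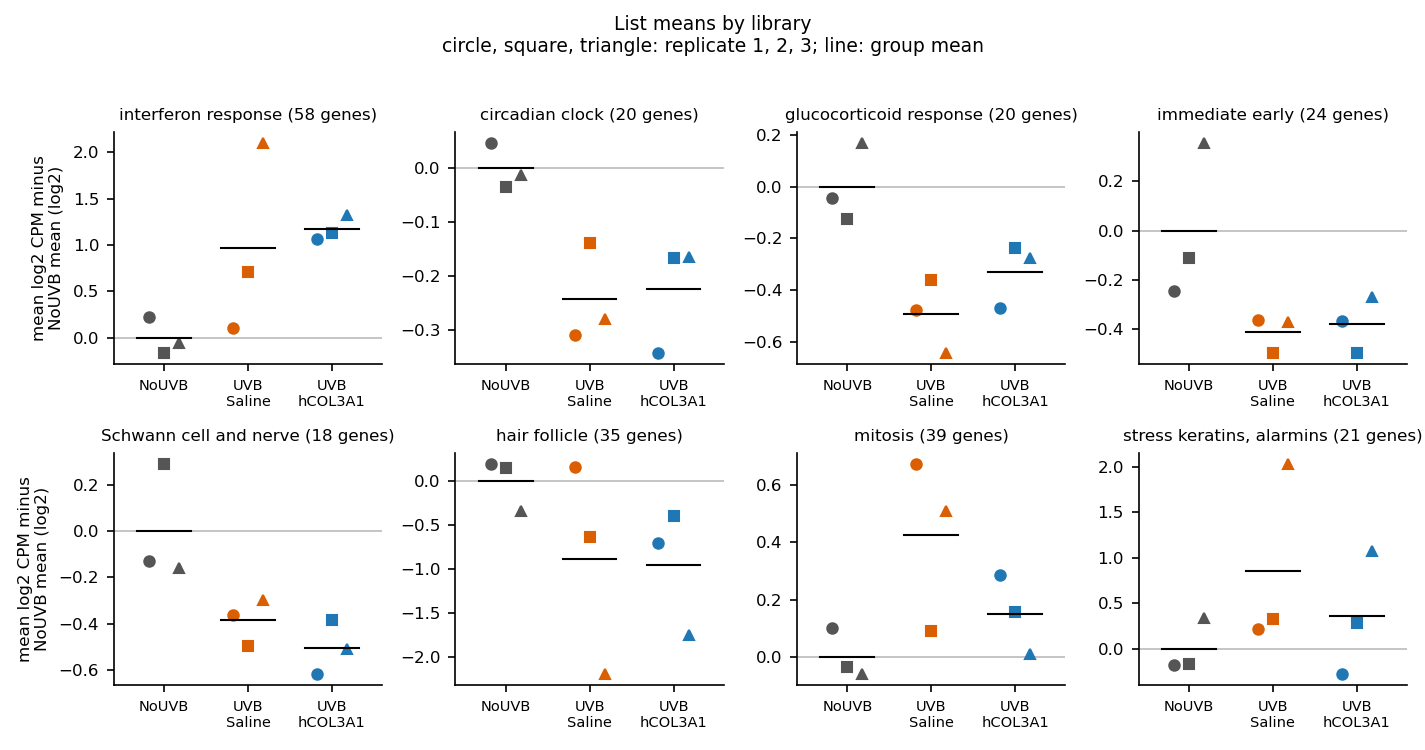
Mean log2 CPM of the genes of 8 lists in each library, relative to the NoUVB mean (log2 scale), with a line at each group's mean. Clock, glucocorticoid, immediate early and Schwann cell lists lie lower in all 6 irradiated libraries than in NoUVB, while interferon, hair follicle, mitosis and stress keratin lists overlap, with UVB_Saline 3 farthest out for interferon, hair follicle and stress keratins.

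Genes of antigen presentation by MHC class I, which interferon also induces, all had a positive difference (16 of 16), but 0 lay above NoUVB in all 6 libraries. Their median was 0.55, and it was 0.17 without UVB_Saline 3 and 0.68 without UVB_Saline 1, and 0.13 without UVB_Saline 3 and UVB_hCOL3A1 3. H2-K1, a classical class I heavy chain, was at 145, 164 and 193 CPM in NoUVB, 137, 155 and 361 in UVB_Saline and 273, 317 and 351 in UVB_hCOL3A1. UVB_Saline 1 and 2 lay within or below the NoUVB range and the other 4 above it. H2-T23 (0.53 ± 0.28), H2-T22 (0.54 ± 0.25) and H2-Q6 (0.70 ± 0.39) overlapped likewise. Reads of class I genes may be shared among them.

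Macrophage and monocyte genes went both ways. Of 24 tested, 18 had a positive difference, 1 lay above and 1 below NoUVB in all 6 libraries (4.17% each), with a median of 0.39 that was 0.21 without UVB_Saline 3 and 0.54 without UVB_Saline 1, and 0.14 without UVB_Saline 3 and UVB_hCOL3A1 3. It was 0.12 in UVB_Saline and 0.67 in UVB_hCOL3A1. Ly6c2, a surface marker of inflammatory monocytes that shares sequence with Ly6c1, was at 0.426, 0.804 and 0.769 CPM in NoUVB, 1.23, 4.36 and 5.53 in UVB_Saline and 9.15, 9.5 and 8.31 in UVB_hCOL3A1. Its 3 groups did not overlap (3.04 ± 0.47, adjusted p = 0.0808), and in UVB_hCOL3A1 alone against NoUVB it rose (adjusted p = 0.0492). Cd209e, a C-type lectin of the DC-SIGN family, had the opposite side, at 5.68, 8.66 and 8.46 CPM in NoUVB and from 1.23 to 2.6 with a median of 2.07 in irradiated skin (-1.96 ± 0.25, adjusted p = 0.0556). Its irradiated groups overlapped each other. Its neighbour in the family, Cd209d, had -1.09 ± 0.32 with overlapping groups. Itgam, the integrin CD11b, was at 19.2, 22.3 and 20.7 CPM in NoUVB, 19.8, 28.6 and 47.5 in UVB_Saline and 62.7, 69.1 and 73.5 in UVB_hCOL3A1, so that UVB_Saline 1 lay within the NoUVB range (1.17 ± 0.24).

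T and NK cell genes had a positive difference in 22 of 24 and lay above NoUVB in all 6 libraries in 0, with a median of 0.42 that was 0.24 without UVB_Saline 3 and 0.74 without NoUVB 3 and 0.08 without UVB_Saline 3 and UVB_hCOL3A1 3. In this athymic strain their counts were low. Gzma, a granule protease of cytotoxic cells, had 0, 0 and 0 counts in NoUVB, 1, 0 and 16 in UVB_Saline and 32, 22 and 22 in UVB_hCOL3A1, and no fold is given against libraries at 0. Gzmb, a related protease, had 2, 1 and 2, 2, 5 and 15 and 25, 21 and 16 counts in the same order. Both were detected most in UVB_hCOL3A1 and in UVB_Saline 3. Ncr1, the NK cell receptor NKp46, had 1, 1 and 3, 4, 3 and 19 and 13, 8 and 10 counts. The T cell co-receptor gene Cd8a had 1.28, 0.357 and 1.15 CPM in NoUVB and ranged from 1.22 to 4.12 with a median of 1.57 in irradiated skin.

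Chemokine and complement genes were mixed. Of 23 cytokines and chemokines tested (17 of 40 had too few counts), 17 had a positive difference and 1 (4.35%) lay above NoUVB throughout, with a median of 0.23 that was 0.05 without UVB_Saline 3 and 0.41 without NoUVB 3, and 0.02 without UVB_Saline 3 and UVB_hCOL3A1 3. That gene was Ccl2, the main monocyte chemoattractant, at 2.27, 1.7 and 1.73 CPM in NoUVB and from 2.87 to 7.7 with a median of 4.72 in irradiated skin (1.36 ± 0.35, adjusted p = 0.246). The related chemokine genes Ccl7 (1.19 ± 0.37), Ccl6 (1.19 ± 0.33) and Ccl9 (0.99 ± 0.17) overlapped NoUVB. For Ccl9 UVB_Saline 1, at 13.9 CPM, lay within the NoUVB values of 13.9, 15.4 and 13.9, whereas it rose in UVB_hCOL3A1 (1.56 ± 0.19, adjusted p = 0.0482). Il1b, an inflammasome-processed cytokine, had 0.30 ± 0.66, and its sign changed without UVB_Saline 3 (-0.18). Of 21 complement genes 15 had a positive difference and Cd55, a membrane regulator that speeds decay of convertases, was the 1 that lay below NoUVB throughout (4.76%), at 72.7, 56.7 and 61.5 CPM against from 35.7 to 54.5 with a median of 44.7 (-0.51 ± 0.10). The anaphylatoxin receptor genes C3ar1 (0.62 ± 0.32 in UVB_Saline and 1.86 ± 0.32 in UVB_hCOL3A1) and C5ar1 (0.62 ± 0.42 and 1.63 ± 0.40) and Cfp, properdin (0.10 ± 0.24 and 1.29 ± 0.24), overlapped NoUVB. The complement median of 0.27 was -0.04 without UVB_Saline 3 and 0.44 without UVB_Saline 1, and -0.002 without UVB_Saline 3 and UVB_hCOL3A1 3.

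Igf2 and Crabp1 stood out on opposite sides and had nearly equal values in both irradiated groups. Igf2, the fetal growth factor expressed from the paternal allele, was at 13.9, 12.7 and 12.023 CPM in NoUVB, 3.49, 5.26 and 6.29 in UVB_Saline and 4.57, 5.27 and 6.26 in UVB_hCOL3A1. All 6 irradiated values lay below NoUVB (-1.31 ± 0.18, adjusted p = 0.0556) and the irradiated groups differed by 0.09 ± 0.22 (adjusted p = 0.918). Crabp1, a cytosolic retinoic acid binding protein, was at 2.41, 3.84 and 3.85 CPM in NoUVB, 6.77, 10.4 and 8.24 in UVB_Saline and 7.93, 8.84 and 9.93 in UVB_hCOL3A1, all 6 above NoUVB (1.34 ± 0.21, adjusted p = 0.0754). Its irradiated groups differed by 0.06 ± 0.21 (adjusted p = 0.946). Among 24 retinoid genes tested, 14 had a positive difference, 2 lay above (8.33%) and 1 below (4.17%) NoUVB throughout, with a median of 0.03 that was -0.03 without UVB_Saline 2 and 0.13 without NoUVB 2. The other above was Aox4, an aldehyde oxidase, at 17.3, 11.966 and 19.9 CPM in NoUVB, 47.2, 44.3 and 33.5 in UVB_Saline and 20.4, 21.4 and 25.4 in UVB_hCOL3A1 (0.90 ± 0.17). The gene below was Cyp26b1, which degrades retinoic acid, at 126, 148 and 147 CPM in NoUVB and from 76.9 to 123 with a median of 93.4 (-0.58 ± 0.14). Aldh1a1, which makes retinoic acid, had -0.60 ± 0.18 with overlapping groups.

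Of the dermal matrix, elastic fibre genes were the group with most separation. Among 17 tested, 3 lay above (17.6% against 2.05%) and 2 below (11.8% against 2.43%) NoUVB in all 6 libraries, with a median of 0.23 that was 0.10 without NoUVB 1 and 0.31 without NoUVB 2, and 0.06 without UVB_Saline 3 and UVB_hCOL3A1 3. It was 0.02 in UVB_Saline and 0.45 in UVB_hCOL3A1. Eln, tropoelastin, was at 36.2, 49.2 and 46.6 CPM in NoUVB and ranged from 58.971 to 102 with a median of 78.3 in irradiated skin (0.84 ± 0.18, adjusted p = 0.202). Fbn1, the main microfibril protein, had 214, 214 and 203 CPM in NoUVB, 219, 246 and 349.7 in UVB_Saline and 350.4, 428 and 421 in UVB_hCOL3A1 (0.64 ± 0.14), with UVB_Saline 1 just above NoUVB. Fbn2, its mainly fetal relative, had 11.5, 6.07 and 11.3 CPM in NoUVB and ranged from 19.3 to 35.2 with a median of 21.2 (1.27 ± 0.26). Ltbp1, which anchors latent TGF-β to microfibrils, was on the lower side at 52.4, 55.4 and 59.3 CPM in NoUVB and from 36.7 to 51.5 with a median of 41.8 (-0.37 ± 0.09).

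Fibrillar collagen genes overlapped between irradiated and NoUVB skin in all 10 tested (median 0.08, or 0.15 without NoUVB 2). Col1a1 was at 2799, 2341 and 3168 CPM in NoUVB and ranged from 2575 to 3797 with a median of 2852 in irradiated skin (0.10 ± 0.12, adjusted p = 0.792). Col1a2 had -0.01 ± 0.10. Col3a1 had 1172, 1201 and 1418 CPM in NoUVB, 1272, 1509.6 and 1433 in UVB_Saline and 1814, 2006 and 1827 in UVB_hCOL3A1, with all UVB_hCOL3A1 values highest (0.36 ± 0.10 for irradiated skin, and 0.42 ± 0.11 between irradiated groups, adjusted p = 0.247). Whether reads of the introduced mRNA are counted in Col3a1 was not tested. The type V chains Col5a1 (0.44 ± 0.12) and Col5a2 (0.48 ± 0.17) overlapped too. Of 24 other collagens 12 had a positive difference, and Col16a1 (83.4, 71.1 and 77.9 CPM in NoUVB, from 58.6 to 64.9 with a median of 61.3 in irradiated skin, -0.34 ± 0.08) was the 1 below NoUVB throughout (4.17%). Col12a1, a fibril-associated collagen, had 1.03 ± 0.24. Col17a1, the hemidesmosomal collagen of basal keratinocytes, had -0.31 ± 0.10. Col8a1, a network-forming collagen, had 0.87 ± 0.27, with UVB_Saline 1 at 4.21 CPM inside the NoUVB range. Collagen processing genes had a positive difference in 23 of 30 with 0 separated, a median of 0.06 in UVB_Saline and 0.27 in UVB_hCOL3A1. Examples are Serpinh1, the collagen chaperone HSP47 (0.04 ± 0.12 and 0.55 ± 0.12), and the crosslinking enzyme gene Loxl2 (0.03 ± 0.10 and 0.59 ± 0.10).

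Proteoglycan genes were evenly split (11 positive of 22, 0 separated). Dcn, decorin, was at 447, 761 and 646 CPM in NoUVB, 332, 317 and 246 in UVB_Saline and 569, 700.1 and 441 in UVB_hCOL3A1. All UVB_Saline values lay below the NoUVB range, the UVB_hCOL3A1 value of 441 lay just below it, and the other UVB_hCOL3A1 values lay inside it. Podn, podocan, had -0.60 ± 0.19 and Vcan, versican, 0.46 ± 0.12. Of 24 matrix proteases 1 lay above and 1 below NoUVB throughout (4.17% each). Adamts4, an aggrecanase, was the one above, at 2.27, 2.77 and 4.23 CPM in NoUVB and from 6.17 to 9.5 with a median of 7.06 (1.25 ± 0.24, adjusted p = 0.14). Adamts1, a related protease, was the one below (-0.40 ± 0.11). Matrix metalloprotease genes often measured in photoaged skin did not separate. Mmp3 had -0.34 ± 0.16, Mmp9 -0.34 ± 0.31 and Mmp13 0.12 ± 0.53. The sign of Mmp13 depended on which library was left out (-0.30 to 0.57). Among inhibitors Reck, a membrane-anchored inhibitor of metalloproteases, lay below NoUVB throughout, at 26.6, 23.1 and 18.5 CPM against from 10.6 to 15.994 with a median of 12.4 (-0.82 ± 0.15, adjusted p = 0.127), and Serpine2, protease nexin 1, lay above (0.57 ± 0.16), 1 of 15 on each side (6.67%). Timp1 had 0.41 ± 0.27 and Serpina3n -0.41 ± 0.11. In TGF-β signalling 4 of 23 (17.4%) lay below NoUVB throughout and 0 above. Those were the matricellular gene Ccn1 (-0.88 ± 0.18, or -0.55 without NoUVB 3), the ligand Tgfb2 (20.9, 25.9 and 17.5 CPM in NoUVB, from 11.6 to 17.1 with a median of 14.037 in irradiated skin, -0.57 ± 0.14), Ltbp1 and the shared signal transducer Smad4 (-0.26 ± 0.08, or -0.16 without NoUVB 2), with a list median of 0.00.

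Markers of peripheral nerve were lower in direction. Of 18 Schwann cell and nerve genes 17 had a negative difference and 3 (16.7%) lay below NoUVB throughout, with a median of -0.52, which was -0.62 without NoUVB 1 and -0.23 without NoUVB 2. The list mean was -0.13, 0.29 and -0.16 in NoUVB, -0.36, -0.49 and -0.30 in UVB_Saline and -0.62, -0.38 and -0.51 in UVB_hCOL3A1, without overlap and with NoUVB 2 highest. Cadm4, an adhesion molecule of Schwann cells also expressed in epithelia, was at 11.9, 12.9 and 8.85 CPM in NoUVB and ranged from 4.04 to 7.15 with a median of 4.56 (-1.13 ± 0.18, adjusted p = 0.0754). Cdh19, a Schwann cell cadherin, was at 8.66, 9.11 and 8.08 CPM in NoUVB and ranged from 4.77 to 6.36 with a median of 5.45 (-0.66 ± 0.14). Scn7a, a sodium channel gene of glia, had -0.43 ± 0.14. The myelin-linked genes Drp2 (-0.78 ± 0.21) and Prx (-0.60 ± 0.18) overlapped, at -0.41 and -0.33 without NoUVB 2. Adipocyte genes were also highest in NoUVB 2 among the NoUVB libraries (list means -0.07, 0.61 and -0.53), and their part in the nerve values was not tested.

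Adipocyte genes had a negative difference in 15 of 18 with 0 separated, and the median of -0.42 was -0.68 without NoUVB 3 and 0.00 without NoUVB 2. It was -0.80 in UVB_Saline and 0.03 in UVB_hCOL3A1. Lep, leptin, was at 12.9, 28.8 and 13.4 CPM in NoUVB, 2.98, 2.96 and 6.94 in UVB_Saline and 8.01, 13.5 and 5.5 in UVB_hCOL3A1 (-1.58 ± 0.39, adjusted p = 0.259), where 1 UVB_hCOL3A1 value lay inside the NoUVB range. Adipoq, adiponectin, had -0.50 ± 0.46 and a positive sign (0.13) without NoUVB 2. Skeletal muscle genes had a list mean of 1.02, -0.48 and -0.53 in NoUVB, -1.29, 0.47 and 0.15 in UVB_Saline and 0.65, 1.01 and 1.13 in UVB_hCOL3A1, so that NoUVB overlapped both irradiated groups and all UVB_hCOL3A1 means lay above all UVB_Saline means. Sebaceous gland genes had a positive difference in 12 of 15, and 3 (20% against 2.05%) lay above NoUVB throughout, with a median of 0.27 that was 0.46 without NoUVB 3. Those were the lipid droplet gene Plin2 (43.7, 38.3 and 45.3 CPM in NoUVB, from 51.6 to 91.3 with a median of 74.5 in irradiated skin, 0.73 ± 0.15), the cholesterol esterifying enzyme gene Soat1 (0.41 ± 0.12) and the fatty acid elongase gene Elovl3 (0.97 ± 0.34).

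Hair follicle genes had a negative difference in 35 of 35, and 4 (11.4%) lay below NoUVB throughout, with a median of -0.65. The spread was wide, with list means of 0.19, 0.15 and -0.34 in NoUVB, 0.16, -0.64 and -2.20 in UVB_Saline and -0.71, -0.40 and -1.75 in UVB_hCOL3A1. UVB_Saline 1 was level with NoUVB, and UVB_Saline 3 and UVB_hCOL3A1 3 were lowest. The median was -1.01 without UVB_Saline 1 and -0.44 without UVB_Saline 3, and -0.30 without both libraries numbered 3. Krt86, a hair cortex keratin, was at 16.8, 14.3 and 12.8 CPM in NoUVB and ranged from 2.81 to 12.1 with a median of 5.73 (-1.22 ± 0.35, adjusted p = 0.293). Krtap8-1, a hair keratin-associated protein, had -1.19 ± 0.34 and Gata3, a transcription factor of the inner root sheath, -0.46 ± 0.13, both with overlap. Krt15, a keratin of follicle stem cells and basal epidermis, lay below NoUVB in all 6 libraries (217, 179 and 166 CPM against from 61.4 to 143 with a median of 107, -0.84 ± 0.23). All 10 melanocyte genes tested had a negative difference with 0 separated. Their median was -0.45, or -0.24 without UVB_Saline 3 and UVB_hCOL3A1 3 and -1.04 without UVB_Saline 1. As for the hair genes, UVB_Saline 1 was highest and UVB_Saline 3 lowest of the irradiated libraries. Melanocyte list means were 0.15, 0.04 and -0.19 in NoUVB, 0.59, -0.83 and -1.82 in UVB_Saline and -1.01, -0.21 and -0.96 in UVB_hCOL3A1. Tyrp1, a melanosome enzyme, was at 34.7 CPM in UVB_Saline 1 and 4.34 in UVB_Saline 3, against 29.4, 24.3 and 22.9 in NoUVB.

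Epidermal stress genes had their highest list means in UVB_Saline 3 (2.03) and UVB_hCOL3A1 3 (1.07). Of 21 stress keratin and alarmin genes 15 had a positive difference and 0 were separated, and the median of 0.53 was -0.03 without UVB_Saline 3 and UVB_hCOL3A1 3. It was 0.23 without NoUVB 2 and 1.04 without NoUVB 3. Krt16, a keratin of injured and hyperproliferative epidermis, was at 53.7, 49.9 and 70.2 CPM in NoUVB, 48.961, 93.2 and 1443 in UVB_Saline and 46.3, 57.9 and 255 in UVB_hCOL3A1. Only UVB_Saline 3 and UVB_hCOL3A1 3 lay far above the others. Krt6a (195, 139 and 131, 119, 187 and 928 and 148, 138 and 249 CPM in the same order) and Krt6b (11.9, 26.3 and 834 and 11.2, 15.8 and 152 in the irradiated groups), which share sequence, had the same pattern, and the small proline-rich gene Sprr2a3 had 0.616, 5.01 and 36.9 and 1.22, 0.564 and 7.77. Lcn2, the antimicrobial lipocalin 2, differed from this, at 4.12, 2.95 and 4.33 CPM in NoUVB, 5.95, 5.84 and 3.69 in UVB_Saline and 16.5, 20.8 and 10.9 in UVB_hCOL3A1, where it rose (2.09 ± 0.28, adjusted p = 0.0483). Cornified envelope genes had a negative difference in 26 of 34 and 2 (5.88%) below NoUVB throughout, including Ppl, periplakin (458, 402 and 398 CPM in NoUVB, from 254 to 369 with a median of 277, -0.51 ± 0.12). Tgm5, an epidermal transglutaminase, had 0.83 ± 0.19. Of 20 keratin and adhesion genes 3 (15%) lay below throughout, with a median of -0.08 that was -0.03 without NoUVB 1. Krt5 had 0.14 ± 0.14, Krt10 0.30 ± 0.24 and Krt1 0.83 ± 0.29, all overlapping.

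Mitotic genes were slightly higher in direction. Of 39 tested 36 had a positive difference and 7 (17.9% against 2.05%) lay above NoUVB throughout, with a median of 0.30, 0.46 in UVB_Saline and 0.20 in UVB_hCOL3A1. List means overlapped, at 0.10, -0.04 and -0.06 in NoUVB, 0.675, 0.09 and 0.51 in UVB_Saline and 0.29, 0.16 and 0.01 in UVB_hCOL3A1. The calls were 0 with edgeR, DESeq2 and limma voom. At an unadjusted p under 0.05 edgeR had 13 higher, and 0 with scaling by library size alone. Ube2c, a ubiquitin-conjugating enzyme of the anaphase-promoting complex, was at 6.11, 5.98 and 5.48 CPM in NoUVB and ranged from 7.32 to 10.9 with a median of 9.36 (0.64 ± 0.16, adjusted p = 0.241). Ect2, needed for cytokinesis, was at 5.4, 4.38 and 5.77 CPM in NoUVB and ranged from 6.49 to 9.11 with a median of 7.73 (0.58 ± 0.17). Anln, anillin (0.37 ± 0.11), Hmmr (0.48 ± 0.16), Dlgap5 (0.44 ± 0.16), Pbk (0.57 ± 0.23) and Kif23 (0.27 ± 0.12) were the rest. Mki67, the usual marker of cycling cells, did not separate, at 346, 302 and 310.1 CPM in NoUVB and from 257 to 484 with a median of 334 (0.09 ± 0.16). DNA replication genes had a positive difference in 31 of 38 and 0 separated (median 0.12, or 0.06 without UVB_Saline 1).

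Genes of the DNA damage response showed no separation upward. Of 34 p53 targets 24 had a positive difference and 0 lay outside NoUVB throughout, with a median of 0.18 that was 0.09 without UVB_Saline 3 and 0.21 without UVB_Saline 1. Cdkn1a, the cell cycle inhibitor p21, was at 49.1, 50.5 and 53.4 CPM in NoUVB, 70.2, 61.7 and 62.982 in UVB_Saline and 50.3, 54.003 and 48.4 in UVB_hCOL3A1, with all UVB_Saline values above NoUVB and UVB_hCOL3A1 overlapping it (0.35 ± 0.09 for UVB_Saline against NoUVB, adjusted p = 0.319, and -0.35 ± 0.09 between irradiated groups, adjusted p = 0.232). Mdm2, the p53 ubiquitin ligase, had -0.01 ± 0.12. Of 34 nucleotide excision repair genes 2 (5.88%) lay below NoUVB throughout, with a median of -0.02 that was -0.04 without NoUVB 2 and 0.03 without NoUVB 1. Uvssa, a factor of transcription-coupled repair, was one (62.4, 50.01 and 50.1 CPM in NoUVB, from 41.4 to 48.4 with a median of 46.4, -0.24 ± 0.10, or -0.13 without NoUVB 1). Xpc, the damage sensor of global repair, had -0.34 ± 0.11. Among 30 heat shock and unfolded protein response genes 5 (16.7%) lay above, led by Hspa5, the endoplasmic reticulum chaperone BiP (126, 124 and 143 CPM in NoUVB, from 154 to 185 with a median of 169, 0.37 ± 0.09), Manf (0.44 ± 0.10) and the disulfide isomerase gene Pdia6 (0.38 ± 0.11), while Herpud1, a gene of endoplasmic reticulum degradation, had -0.32 ± 0.11. Cholesterol and fatty acid synthesis genes had a positive difference in 28 of 33 and 2 (6.06%) above throughout, Ebp (0.53 ± 0.14) and Hsd17b7 (0.34 ± 0.11), with a median of 0.15 that was 0.08 without NoUVB 2 and 0.23 without UVB_Saline 3.

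**Figure D4:**
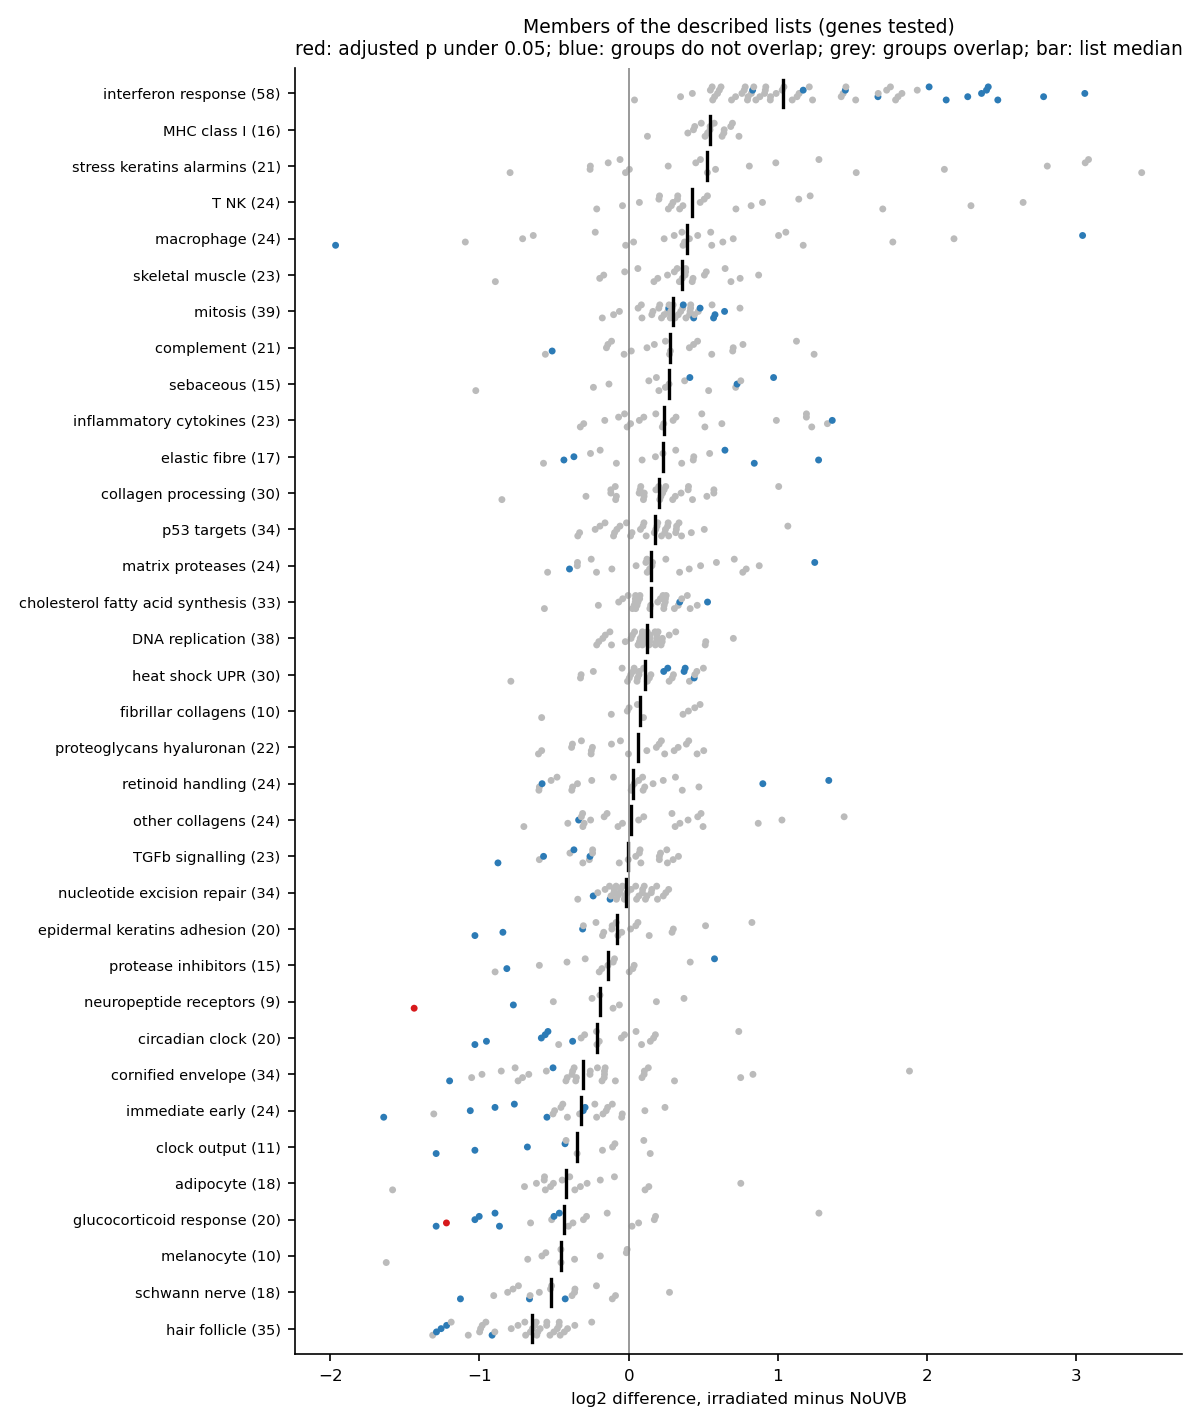
Log2 difference (irradiated minus NoUVB) of each tested member of the 35 described lists, ordered by list median (black bar), with red points for genes past an adjusted p of 0.05, blue for other genes whose groups did not overlap and grey for the rest. The 2 red points are Adcyap1r1 and Zbtb16, interferon genes have the highest median at 1.03 and hair follicle genes the lowest at -0.65; Gzma, with 0 counts in NoUVB, is not drawn.

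Each irradiated group was also tested alone against NoUVB. Those comparisons share the 3 NoUVB libraries, so their values are set side by side and no overlap is taken as a result. UVB_Saline had 3 genes lower (0.0175% of genes; Adcyap1r1, Zbtb16 and Per2) and 0 higher (0%), with 847 higher and 790 lower at an unadjusted p of 0.05. UVB_hCOL3A1 had 7 higher (0.0408%; Oasl1, Irf7, Trim30d, Ly6c2, Ccl9, H2-T24 and Lcn2) and 0 lower (0%), with 1080 and 948 at an unadjusted p of 0.05. The test between the irradiated groups called 0 in either direction (0%), with 1025 and 913 at an unadjusted p of 0.05. Adcyap1r1 differed from NoUVB by -1.58 ± 0.19 in UVB_Saline and -1.29 ± 0.19 in UVB_hCOL3A1. For Irf7 the values were 1.56 ± 0.33 and 2.99 ± 0.33 and their difference 1.43 ± 0.30 (adjusted p = 0.206), and for Lcn2 0.46 ± 0.29 and 2.09 ± 0.28 with a difference of 1.63 ± 0.27 (adjusted p = 0.128). H2-T24, a nonclassical class I gene, had 0.42 ± 0.16 and 1.26 ± 0.16. A gene past the threshold in one group and not in the other was therefore not shown to differ between them.

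**Figure D5:**
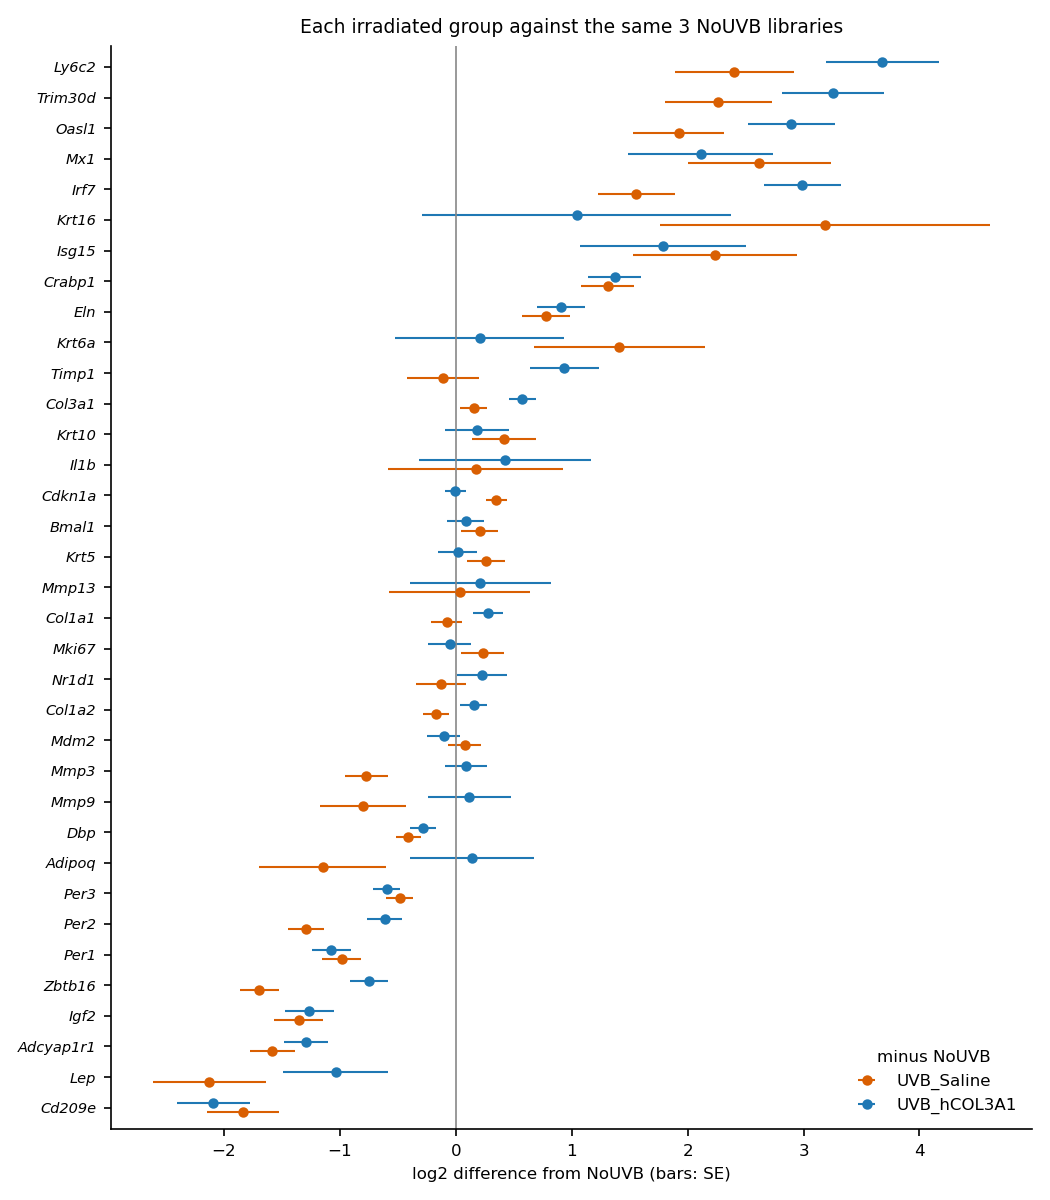
Log2 difference from the same 3 NoUVB libraries in UVB_Saline (orange) and UVB_hCOL3A1 (blue), with SE bars, for the 10 genes plotted first (5 per direction) and the genes named whatever their values. The 2 values lie close together for Igf2, Crabp1 and Per1 and apart for Irf7, Zbtb16 and Per2.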

How the data were processed

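Transcript levels of mouse skin were read in 9 libraries, 3 per group, from TRIzol-extracted total RNA read as paired ends, per the labels' protocols. STAR 2.7.11b, RSEM 1.3.3, Bowtie2 2.5.4, fastp 0.23.4, DESeq2 1.44.0 and the build GRCm39 are named in the submitters' processing notes. Roles, annotation and strand setting of these were not given in the sources used here. Reads of overlapping or antisense genes may therefore mix. Estimated counts of 57180 genes were deposited by the authors in 1 table, with 11.1% to 14% of values per library not whole. They were rounded here. Genes without a symbol (525) carried 0.0384% of counts.

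In R 4.3.3, edgeR 4.0.16 (filterByExpr, TMM, robust quasi-likelihood fit of the 3 groups, 6 residual degrees of freedom) tested the mean of both irradiated groups minus NoUVB, two-sided, with Benjamini-Hochberg adjustment over 17168 genes. Adjusted p-values are from this fit unless another tool is named. Values after ± are SE for log2 differences and SD for CPM. Alternatives used DESeq2 1.42.0, limma 3.58.1, other scalings and filters, a replicate block and each library left out. On simulated counts the test recovered 70% of genes changed 2-fold and 94% of those changed 4-fold, with 8 false calls among 17033. The 100 genes changed at each fold had an average log2 CPM above 1 and equal changes in both irradiated groups. Each gene was drawn independently and no library was made to stand apart. The shares recovered may therefore not hold for the real libraries.

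Replicates within groups differed by more than sampling noise. Lists (49, of which 35 are described) and the genes named were chosen with earlier results of these data known. The rule named, per direction, called genes, or the 5 with the smallest p where under 3 passed (average log2 CPM of at least 1, groups not overlapping, no predicted genes), up to 4 members of smallest p per described list, and 26 genes whatever their values. Further members that complete a count were named after their values were seen. No set test was run. One member counted in a list is not reported by name here.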

Additional observations from a re-analysis of the deposited data

Results flagged for a closer look

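Among 179 genes and 35 list means checked over the 6 irradiated libraries, 7 had 1 library far from the other 5, where chance gives about 1 in 20. The values here are that library's gap to its nearest neighbour as a share of the whole range of the 6. UVB_Saline 3 was high for Fbn2 (0.726), Cd44 (0.655), the hyaluronan receptor, and Krt6a (0.642). UVB_Saline 1 was high for Ier2 (0.658) and low for Col8a1 (0.66), for Trp53cor1 (0.709), a noncoding RNA induced by p53, and for the mean of the matrix protease list (0.626). For Fbn2 UVB_Saline 3 held 35.2 CPM, and the other 5 irradiated libraries still lay above NoUVB.

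In 3 results the 2 irradiated groups lay on opposite sides of the NoUVB mean in every library. UVB_hCOL3A1 minus UVB_Saline was 0.36 on the log2 scale for Col1a1 (adjusted p = 0.377) and 0.33 for Col1a2 (adjusted p = 0.348). It was 0.386 for the mean of the proteoglycan and hyaluronan list, whose difference was not tested.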

How the results depend on the processing

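Of 179 named genes, 170 kept the sign of their difference in all 21 alternatives, and 27 of 35 list medians did. The calls did not hold as well. Genes called higher and lower numbered 0 and 2 with the main settings, 76 and 62 with library size alone, 51 and 69 with no filter, 95 and 71 with DESeq2 and 21 and 30 with a replicate block. They numbered 0 and 6 with voom, 0 and 4 with the 6 irradiated libraries as 1 group, and, chosen after seeing the data, 6 and 9 without UVB_Saline 3 and UVB_hCOL3A1 3 and 1 and 10 with voom and sample quality weights. Leaving out single libraries gave 0 to 50 higher and 0 to 19 lower. The cause of these shifts was not tested. The labels do not say what a replicate number marks. Correlations of same-numbered deviations ranged from 0.0181 to 0.41, with 5 of 9 above 0.1, and 6 of 9 libraries correlated best with their own number. The value of 0.41 was between UVB_Saline 3 and UVB_hCOL3A1 3, the libraries that stand apart. UVB_Saline 1 and UVB_hCOL3A1 2, with different numbers, reached 0.257. This is at most a weak hint of pairing, from the data and not from the design. Since not every pair was above 0.1, the replicate block was kept as an alternative. Genes near 1 CPM rest on few counts and have wide errors.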

Other observations

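Outside the gene lists, the 24 genes with the smallest p whose groups did not overlap were read after their values were seen, and none passed the threshold. Several are receptors, channels or enzymes. Fmo1, a flavin monooxygenase, was at 27.4, 29.023 and 29.7 CPM in NoUVB and ranged from 12.5 to 20.2 with a median of 16.983 in irradiated skin (-0.78 ± 0.11, adjusted p = 0.0749). Arrdc3, an arrestin-domain gene that responds to glucocorticoids and fasting, was at 77.4, 77.4 and 90.7 CPM in NoUVB and ranged from 44.8 to 62.2 with a median of 50.3 (-0.68 ± 0.10). Sik1, a salt-inducible kinase of cAMP signalling, had 52.978, 55.7 and 72.8 CPM in NoUVB and ranged from 31.8 to 43.1 with a median of 36.1 (-0.73 ± 0.13). Its irradiated groups differed by 0.02 ± 0.15. Osr2, an odd-skipped transcription factor of fibroblasts, had 24.003, 27.8 and 23.9 CPM in NoUVB, 9.96, 14.7 and 10.3 in UVB_Saline and 15.3, 18.4 and 14.7 in UVB_hCOL3A1 (-0.88 ± 0.14).

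Among these on the lower side, the potassium channel genes Kcna2 (23.4, 30.987 and 18.6 CPM in NoUVB, from 13.1 to 16.012 with a median of 14.8 in irradiated skin, -0.73 ± 0.14) and Kcna1 (-0.94 ± 0.19), the adhesion genes Ncam2 (-1.19 ± 0.22), Cdh4 (-1.09 ± 0.20) and Cadm3 (-0.58 ± 0.11) and Stmn2 (-1.03 ± 0.20), which encodes a growth-associated protein of axons, lay below NoUVB in all 6 irradiated libraries. Cadm3 was lower mainly in UVB_Saline (24.6, 31.2 and 24.4 CPM, against 37.1, 49.8 and 44.5 in UVB_hCOL3A1 and 52.6, 50.991 and 49.8 in NoUVB). Also lower were Ccr4, a chemokine receptor of skin-homing T cells (4.69, 3.57 and 5.19 CPM against from 0.759 to 2.55 with a median of 1.28), Ahrr, the repressor of the aryl hydrocarbon receptor (-0.81 ± 0.15), Rspo1, a Wnt agonist (-0.85 ± 0.16), and Cubn, an endocytic receptor (-1.18 ± 0.19).

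On the higher side stood 2 interferon-inducible genes of the Ifi200 cluster, Ifi208 (0.71, 1.07 and 0.673 CPM in NoUVB, from 1.54 to 4.21 with a median of 3.16 in irradiated skin, 1.82 ± 0.31) and Ifi209 (1.65 ± 0.29), whose reads may be shared with neighbours. Sox7, an endothelial transcription factor, was at 7.24, 9.29 and 10.003 CPM in NoUVB and ranged from 13.5 to 19.2 with a median of 15.9 (0.85 ± 0.16). Rian, an imprinted noncoding RNA expressed from the maternal allele, was at 11.9, 12.8 and 17.5 CPM in NoUVB and ranged from 18.989 to 30.8 with a median of 24.6 (0.79 ± 0.15). Mlec, malectin of the endoplasmic reticulum, had the narrowest irradiated spread of those named here, 106, 104 and 104 CPM in UVB_Saline and 107, 106 and 103 in UVB_hCOL3A1, against 71.6, 79.8 and 86.8 in NoUVB (0.40 ± 0.08).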
